A study of Ctenopharyngodon idella with 15 samples.

Results

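The gene loci around an antigen-processing cluster were examined on 1 scaffold of the grass carp genome, CI01000319, in gill RNA. Members were the loci of this scaffold that start at position 4500000 or later and had a mean of at least 0.5 FPKM over 15 fish. FPKM is the number of fragments on a locus relative to transcript length and to the total of the library. The 3 antigen-processing loci themselves, with starts 5742834, 5746833 and 5750029, were left out. This gave 75 members of the 40116 loci in the files, or of the 24647 loci that reach a mean of 0.5 FPKM. The stretch holds 100 loci in all, of which 22 were below the minimum. Members were thus selected on position and mean FPKM, and their mean level is given only as a description.

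The gills came from 15 uninfected grass carp aged 3 months, with 1 library for each fish and 3 fish in each of 5 groups, at day 30. Only the treated fish had spent the 30 days in water with added commercial sea salt. The groups were untreated fish at 0‰ (con) and the symptomatic and asymptomatic fish of the 3‰-treated and of the 6‰-treated water, called 3‰ symptomatic, 3‰ asymptomatic, 6‰ symptomatic and 6‰ asymptomatic fish below. Symptomatic fish are those labelled as having an injured body, and asymptomatic and con fish are labelled healthy. Salinity is 3% or 6% in the labels but 3‰ or 6‰ in the series text, and the second is used here. No source used here states whether fish of a group shared a tank, so p-values measure only the spread between these fish. All FPKM of a library summed to between 759044 and 852270, with 28848 to 30345 loci above 0. The most alike of the 105 pairs of libraries came from different groups, 6‰ symptomatic fish 1 and 3‰ symptomatic fish 1, with a median absolute difference of 0.14 on the log2(FPKM + 1) scale. The paper gives a minimum of clean data in Gb for each sample, but the number of reads assigned to loci is unknown. An FPKM of 0 is therefore given below as a listed value.

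In vertebrates, the transporter associated with antigen processing (TAP) moves peptides into the endoplasmic reticulum, where MHC class I molecules bind them for display to T cells. The peptides are cut by proteasomes, and interferon-inducible beta subunits replace the ordinary ones in the immunoproteasome. In zebrafish, TAP2 and immunoproteasome genes lie beside MHC class I genes, and the gene content of this region differs between haplotypes. The row labels of a heat map in the study give the 3 left-out loci as antigen peptide transporter 2 (start 5742834), proteasome subunit beta type-9 (5746833) and proteasome 20S subunit beta 12 (5750029). In the RefSeq annotation of the grass carp assembly HZGC01, psmb12, psmb9a and tap2a also follow each other, after brd2a, psmb8a and psmb13a. None of the locus identifiers matched that table (0 matched), so the members carry no gene names here and no role is given to them. For the same reason gill markers could not be checked. Each member is called by its start below, since its full identifier is the scaffold, start and end (CI01000319_05777222_05780221 for locus 5777222). The genome build of these coordinates is unstated in the sources used here.

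The left-out loci are given first, as a comparison only. The antigen peptide transporter 2 locus was listed at 1.01, 1.06 and 2.28 FPKM in con fish, at 26.6, 21.2 and 8.20 in 3‰ symptomatic fish and at 1.97, 3.00 and 0 in 3‰ asymptomatic fish. It was listed at 27.6, 48.1 and 1.63 FPKM in 6‰ symptomatic fish, and at 33.4, 27.3 and 34.1 in 6‰ asymptomatic fish. The beta type-9 and beta 12 loci were both listed at 0 in 7 fish, namely all con fish, all 3‰ asymptomatic fish and 6‰ symptomatic fish 3.

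The 75 members lay between positions 4515268 and 6319511, with none overlapping another and a median gap of 4756 bp between neighbours. Their mean FPKM over the 15 fish had a median of 18.8 and spanned 0.602 to 1177, beside a median of 8.22 for all 24647 loci. There were 10 members above 100 FPKM, 62 from 1 to 100 FPKM and 3 below 1 FPKM. The highest mean was at locus 4759154, with 1177 FPKM, followed by locus 4787066 with 464 and locus 6142385 with 445. The members just inside the minimum were 4581466 with 0.602, 5988722 with 0.922 and 5618356 with 0.978 FPKM. Just outside it were locus 4643148 with 0.350, locus 5338956 with 0.311 and locus 4550077 with 0.287 FPKM.

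**Figure D1:**
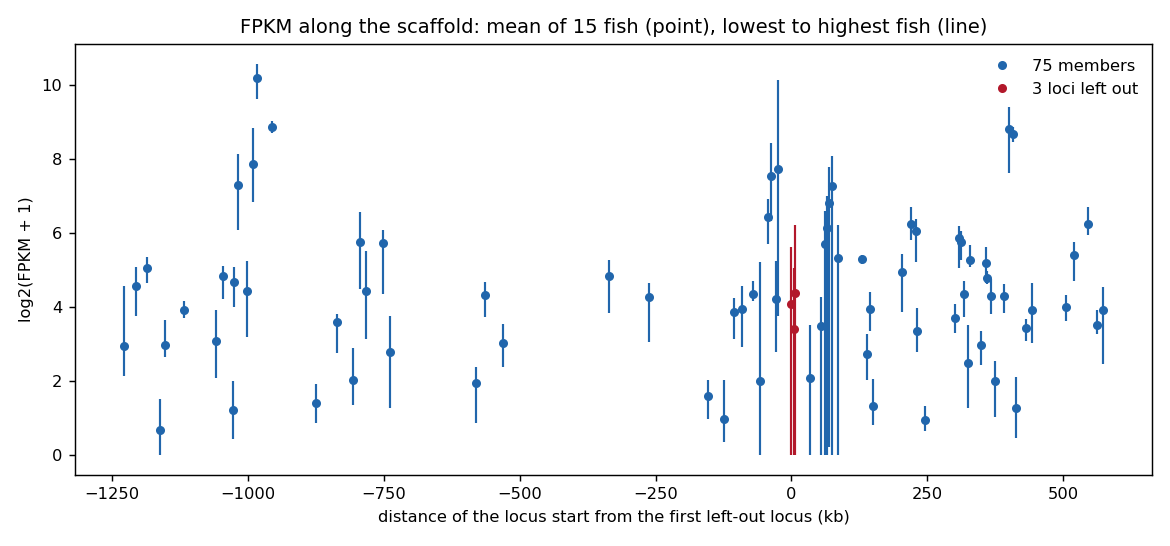
Level of each locus on the log2(FPKM + 1) scale against its distance from the first left-out locus in kb, with the mean of 15 fish as a point and a line drawn between the lowest and the highest fish. The 75 members are blue and the 3 left-out loci red, and the long lines of members lie close to the left-out loci.

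The members differed more between fish near the left-out loci than elsewhere in the stretch. The within-group spread, as an SD on the log2(FPKM + 1) scale pooled over the 5 groups, had a median of 1.10 for the 15 members within 100 kb of the left-out loci and of 0.30 for the other 60. An SD of at least 1 was found for 8 of the 15 members within 100 kb and for 0 of the 60 beyond, where the highest SD was 0.72. Among all 24647 loci 783 (3.18%) had such an SD, and among the 122 loci before the stretch on the same scaffold 9 (7.38%). Of these 8 members 5 belong to the run of loci described next, which was lowest in 3‰ asymptomatic fish 3 and 6‰ symptomatic fish 2. Locus 5796587, whose SD is the median of 1.10, was listed at 0 only in 3‰ asymptomatic fish 3. The SD was not computed again without these fish, so how much of the contrast rests on them is unknown. The distance of 100 kb was chosen after the values were seen, so this contrast is a description with no test. Not every locus near the cluster had a wide spread. Locus 5672786, 59.0 kb before the left-out loci, had a median of 19.2 FPKM over the 15 fish with an SD of 2.04.

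A wide swing was shared by 5 consecutive loci after the left-out ones, 5804236, 5808908, 5812788, 5816948 and 5828294, which span 29.88 kb. Locus 5816948, the highest of them, had 242, 137 and 111 FPKM in con fish, 270, 106 and 213 in 3‰ symptomatic fish, and 147, 264 and 0 in 3‰ asymptomatic fish. It had 236, 11.9 and 213 FPKM in 6‰ symptomatic fish and 121, 116 and 111 in 6‰ asymptomatic fish. All fish but 2 were thus between 106 and 270 FPKM.

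The other loci of the run had the same 2 low fish. In 3‰ asymptomatic fish 3, loci 5804236, 5808908 and 5828294 were listed at 0 and locus 5812788 at 0.163 FPKM. In 6‰ symptomatic fish 2 the 5 loci had 7.12, 9.16, 14.0, 11.9 and 5.78 FPKM in order of position. Their FPKM summed to 0.163 in the first of these fish and to 48.0 in the second, and to between 266 and 729 in the other 13. The sum in 6‰ symptomatic fish 2 was 12.6% of that of the median fish.

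The locus just before the run, 5796587, had only one of these low fish. It was listed at 0 in 3‰ asymptomatic fish 3, but at 11.9 FPKM in 6‰ symptomatic fish 2, within the 4.83 to 18.2 FPKM of the other fish. Locus 5872448, the next one after the run, was at 38.0 FPKM in 3‰ asymptomatic fish 3 and at 37.2 in 6‰ symptomatic fish 2. The fish with a low run also differed at the left-out loci. The 3 left-out loci summed to 0 FPKM in 3‰ asymptomatic fish 3 and to 154 FPKM in 6‰ symptomatic fish 2, the highest sum of the 15 fish.

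**Figure D2:**
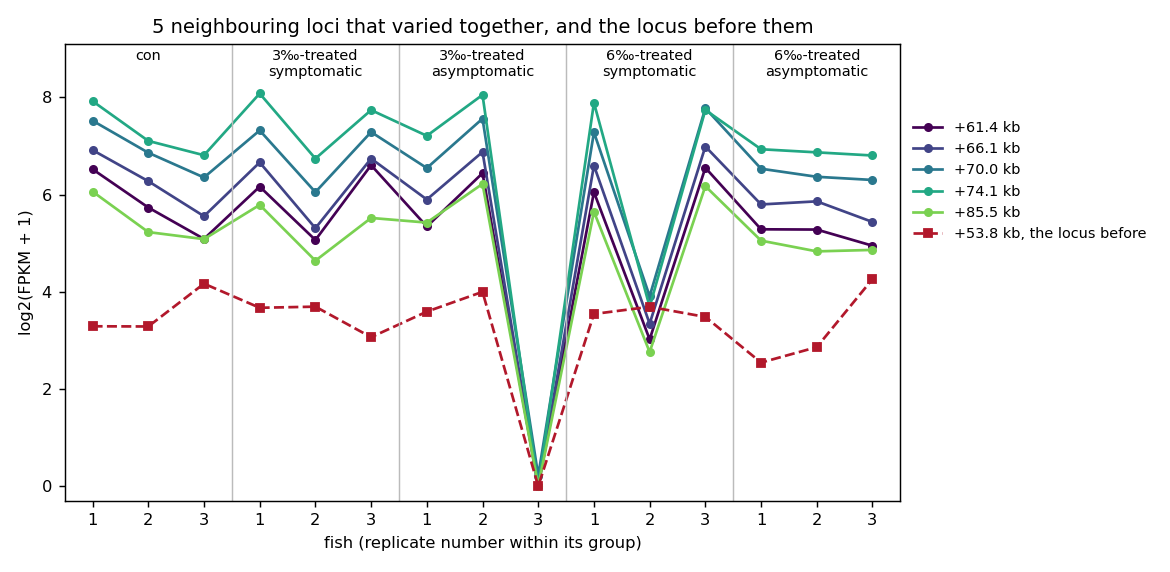
Level on the log2(FPKM + 1) scale in each of the 15 fish for the 5 loci of the run and, dashed, for the locus before it, each labelled by its distance from the first left-out locus. The 5 lines fall together to or near 0 in 3‰ asymptomatic fish 3 and to a low level in 6‰ symptomatic fish 2, while the dashed line falls only in the first of these.

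The groups overlapped at the run. The sum of the 5 loci was 512 ± 214 FPKM in 3‰ symptomatic fish, 370 ± 364 in 3‰ asymptomatic fish, 457 ± 359 in 6‰ symptomatic fish and 316 ± 24.7 in 6‰ asymptomatic fish, against 474 ± 205 in con fish (SD, n = 3 each). None of the 5 loci passed the DEG threshold (given below) in any of the 8 comparisons. The proportions of the 5 loci varied less than their sum. Over the 14 fish with a sum above 1 FPKM, locus 5816948 made up 24.8% to 41.2% of the sum (median 36.3%), locus 5812788 24.3% to 30.3% and locus 5828294 7.29% to 12.0%.

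Stretches of this kind were looked for among all loci with a position. A stretch was defined, after the run had been seen, as at least 4 consecutive loci below 0.2 FPKM in 1 fish with a median of at least 10 FPKM over the 15 fish. There was 1 such stretch on all scaffolds, the 6 loci from 5796587 to 5834113 in 3‰ asymptomatic fish 3. In that fish 7 members were listed at 0, against 0 or 1 member in every other fish. The sum of FPKM over all loci was 800868 in this library, within the range of the others, and 28963 of its loci were above 0. Reads that fit several near-identical copies can be split or dropped in counting, and whether these loci have such copies was not tested.

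Each pair of neighbours in the run was strongly correlated over the 15 fish. Pearson's r of log2(FPKM + 1) was 0.997 between loci 5804236 and 5808908, 0.998 between 5808908 and 5812788, 0.994 between 5812788 and 5816948, and 0.991 between 5816948 and 5828294. Spearman's rho was 0.943 to 0.989 for these pairs. The two-sided permutation p was 1e-05 for each r and each rho, the smallest that 100000 permutations can give. After Benjamini-Hochberg adjustment over 18845 neighbouring pairs of all scaffolds the p was 0.00077 for r and 0.0012 for rho. Since r could rest on the 2 low fish, it was computed again without 3‰ asymptomatic fish 3 and 6‰ symptomatic fish 2, and was 0.980, 0.986, 0.934 and 0.917. The 13 remaining fish therefore also varied together at these loci. The pair 5796587 and 5804236, by contrast, had an r of 0.71 with all fish (adjusted permutation p = 0.19, rho -0.15). Its r was -0.29 without 3‰ asymptomatic fish 3 and 6‰ asymptomatic fish 1, the 2 fish farthest from the median of locus 5796587. The r without each of them alone is not given here, and both loci were at 0 in 3‰ asymptomatic fish 3.

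Few loci elsewhere followed the run. Among the 24642 other loci, 1 had an r above 0.85 to the mean log2 level of the run, CI01000030_08185866_08194632 with r = 0.852 over 15 fish. None of the other 70 members did (0 of 70). The loci next in r had 0.848 and 0.846, so the count rests on the limit of 0.85. These r were not computed again without the low fish.

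Over the whole stretch, 7 of the 73 pairs of neighbouring members (9.59%) passed an adjusted p of 0.05 for both r and rho, beside 6.86% of the 18845 pairs of all scaffolds. The median r was 0.14 for pairs of members and 0.12 for all pairs, so the median pair of members was close to that of all scaffolds. An r above 0.9 was found for 5 of the 73 pairs (6.85%) and for 1.51% of all pairs, and 4 of the 5 belong to the run. Without 3‰ symptomatic fish 3, 4 pairs passed.

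The other 3 pairs lay on both sides of the cluster. Loci 5406910 and 5481484, which are 74373 bp apart, had an r of 0.93 (adjusted permutation p = 0.0023, rho 0.75, 15 fish), and 0.81 without con fish 1 and 6‰ symptomatic fish 3. Locus 5435510, which was below the minimum FPKM, lies between them. Loci 5704764 and 5715222, just before the left-out loci, had an r of 0.74 (adjusted permutation p = 0.019, rho 0.85). Without 3‰ symptomatic fish 3 and 6‰ asymptomatic fish 1 that r was 0.56, and after each group's mean was subtracted it was 0.55. Loci 6090962 and 6100790 varied in opposite directions, with an r of -0.76 (adjusted permutation p = 0.016, rho -0.72), and of -0.77 without con fish 1 and 6‰ symptomatic fish 3.

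Locus 5481484 belonged to a pattern that was spread along the stretch rather than held in 1 place. Its level had an r above 0.85 with 8 other members, namely 4907275, 4991514, 5179443, 5406910, 5636576, 5946289, 6090962 and 6263395, which lie 74.6 to 782 kb from it. The highest r was 0.96, with locus 4991514 at a distance of 490 kb. Locus 5481484 had 7.40 FPKM in 6‰ symptomatic fish 3, 10.5 in 3‰ symptomatic fish 3 and 10.5 in con fish 1, and 14.9 to 24.1 in the other fish. Locus 4991514 was lowest in the same 3 fish, with 19.4, 29.2 and 30.3 FPKM, and had 46.0 to 67.4 in the rest. This pattern was shared widely, as 1340 of all other loci (5.44%) had an r above 0.85 to locus 5481484. The low fish were also among the libraries least like the rest over all loci. The pairs ranked 105 and 104 of 105 both held 6‰ symptomatic fish 3, with median absolute log2 differences of 0.546 and 0.533. In pairs without 6‰ symptomatic fish 3 the difference reached 0.459 for con fish 1 and 0.414 for 3‰ symptomatic fish 3. The highest difference of a pair without any of the 3 low fish was 0.360. Whether the pattern follows from this was not tested. In bulk tissue, fewer cells of a type and less RNA per cell cannot be told apart.

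**Figure D3:**
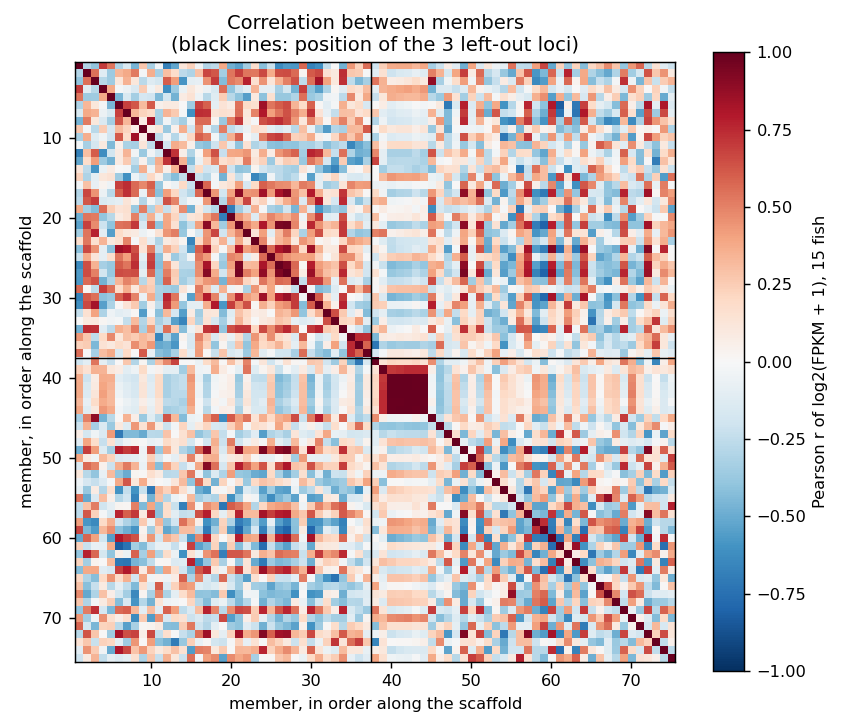
Pearson's r of log2(FPKM + 1) over 15 fish between all pairs of the 75 members, in their order along the scaffold on both axes, with black lines at the position of the left-out loci. The dark red block just after the lines is the run of 5 loci (r from 0.986 to 0.998), and scattered red cells far from the diagonal are the members that follow locus 5481484.

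Of all members, locus 5777222 was most like the left-out loci, 26.8 kb after which it lies. It was listed at 0.604, 0 and 0.235 FPKM in con fish, at 2.61, 2.66 and 8.83 in 3‰ symptomatic fish and at 0, 2.15 and 0 in 3‰ asymptomatic fish. It had 5.51, 5.45 and 0.587 FPKM in 6‰ symptomatic fish, and 10.4, 6.25 and 2.88 in 6‰ asymptomatic fish. The fish at the low end were the con and the 3‰ asymptomatic fish together with 6‰ symptomatic fish 3, and these are the 7 fish in which the beta 12 locus was listed at 0.

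The likeness was between these fish and the others, not among the others. Within the 8 fish with the beta 12 locus above 0, the r between locus 5777222 and that locus was -0.12 (rho -0.17). Likeness to the left-out loci over all 15 fish is given only as a rank, and no test of it is given. By its r to their mean log2 level over 15 fish, locus 5777222 had a rank of 10 among 24647 loci. The ranked loci include the left-out ones themselves. The next members were 4557814 (rank 96) and 5004721 (rank 134). Of all other loci, the one with the most similar pattern to 5777222 was newGene_12188, with r = 0.94 and a position that its name does not give. Its mean of 0.911 FPKM was low.

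The 4 loci just before the left-out ones did not all have the same highest fish. Locus 5718732, whose end is 8.55 kb before them, had 1035, 56.4 and 50.6 FPKM in con fish, 151, 22.9 and 15.2 in 3‰ symptomatic fish and 12.7, 1130 and 144 in 3‰ asymptomatic fish. It had 169, 82.7 and 130 FPKM in 6‰ symptomatic fish and 20.1, 133 and 44.7 in 6‰ asymptomatic fish. Thus 3‰ asymptomatic fish 2 and con fish 1 stood far above the other 13, which were at or below 169 FPKM, and the groups overlap.

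Locus 5704764 was also highest in these 2 fish, with 345 FPKM in 3‰ asymptomatic fish 2 and 339 in con fish 1, beside 79.0 to 265 in the other 13. Locus 5700294, the farthest of the 4, had 51.0 to 120 FPKM and its highest value in 3‰ asymptomatic fish 1.

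Locus 5715222 was lower in 3 of the 4 treated groups than in con fish. It had 14.4, 13.1 and 5.87 FPKM in 3‰ symptomatic fish, 15.9, 11.5 and 13.7 in 6‰ symptomatic fish and 10.2, 15.9 and 12.8 in 6‰ asymptomatic fish, against 24.6, 23.5 and 27.6 in con fish. In 3‰ asymptomatic fish it had 14.2, 26.0 and 37.3 FPKM and overlapped con. Con and 3‰ asymptomatic fish are the groups in which the left-out loci were low. By its r to their mean log2 level, locus 5715222 had a rank of 24479 among the same 24647 loci, near the opposite end from locus 5777222. After each group's mean was subtracted, the r to that level was -0.03 for locus 5715222 and 0.55 for locus 5777222. The rank of locus 5715222 thus rests on differences between groups, not on fish within a group.

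A member far below these in most fish was locus 5684798, 57.5 kb before the left-out loci. It had 36.2 FPKM in con fish 3 and at most 3.86 in the other 14, with 0 in 4 of them, so most of its mean of 3.03 FPKM came from 1 fish. With locus 5777222, locus 5796587 and 4 loci of the run, it was one of 7 members listed at 0 in some fish and at 2 FPKM or more in another (9.33%, beside 6.69% of all loci). All 7 also reached 10 FPKM in some fish, which holds for 1.72% of all loci. Locus 5796587 and the 4 loci of the run were at 0 only in 3‰ asymptomatic fish 3. They are consecutive or nearly so and share 1 library, so they are not separate cases and the share of members is not comparable with that of all loci.

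Comparisons between groups were made with limma on log2(FPKM + 1) for all 24647 loci. A locus was taken as a differentially expressed gene (DEG) when its change reached 1.5-fold with an unadjusted p below 0.05. In 3‰ asymptomatic fish vs con, 9 of the 75 members were DEGs, or 12% of members beside 5.74% of all loci. Of these 5 were up-regulated (4.24% of all loci) and 4 down-regulated (1.5%), and the total was 5 without con fish 1 and 14 without 3‰ asymptomatic fish 2, of which 9 were down-regulated. In 3‰ symptomatic fish vs con there were 7 DEGs, 9.33% beside 6.56%. They were 4 up-regulated (4.27% of all loci) and 3 down-regulated (2.29%), and 4 in total without con fish 1. With quantile normalization the split was 4 up-regulated and 5 down-regulated. In 6‰ asymptomatic fish vs con there were 7 as well, 9.33% beside 10.4%. They were 6 up-regulated (7.1% of all loci) and 1 down-regulated (3.27%), and 11 in total without con fish 3. The split was 5 up-regulated and 3 down-regulated with median-ratio scaling, and 4 and 2 with quantile normalization. In 6‰ symptomatic fish vs con there were 5, 6.67% beside 5.97%. They were 4 up-regulated (4.02% of all loci) and 1 down-regulated (1.95%), and 2 in total without 6‰ symptomatic fish 2. The split was 2 up-regulated and 3 down-regulated without con fish 2, and 7 and 0 without 6‰ symptomatic fish 3. The shares of members were near those of all loci except in 3‰ asymptomatic fish, and the counts depended on single fish in every comparison with con. For counts without a fish or with another scaling, here and below, the shares of all loci are not given. Whether such shifts are particular to the members can thus not be read from them.

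After Benjamini-Hochberg adjustment over all 24647 loci 1 member kept a p below 0.05 with a fold of 1.5, in 6‰ asymptomatic fish vs con (1.18% of all loci). In limma 0 members did so in the other 3 comparisons with con, beside 0.00811%, 0.0406% and 0.0365% of all loci in 3‰ asymptomatic, 3‰ symptomatic and 6‰ symptomatic fish. Nor did any in the comparisons between treated groups, beside 0.0162% in 6‰ asymptomatic vs 3‰ asymptomatic fish, 0.00406% in 6‰ symptomatic vs 3‰ symptomatic fish and 0% in both comparisons of symptoms. The median log2 fold change of the members was 0.01 in 3‰ asymptomatic, -0.02 in 3‰ symptomatic, 0.11 in 6‰ asymptomatic and -0.09 in 6‰ symptomatic fish vs con. Over all loci the medians were 0.10, 0.03, 0.08 and 0.04 in the same order. The members did not move one way, as 39, 33, 42 and 31 of the 75 had a positive log2 fold change. In total 12 members were DEGs in some comparison with con, 16% beside 19% of all loci, and these comparisons share the 3 con fish.

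**Figure D4:**
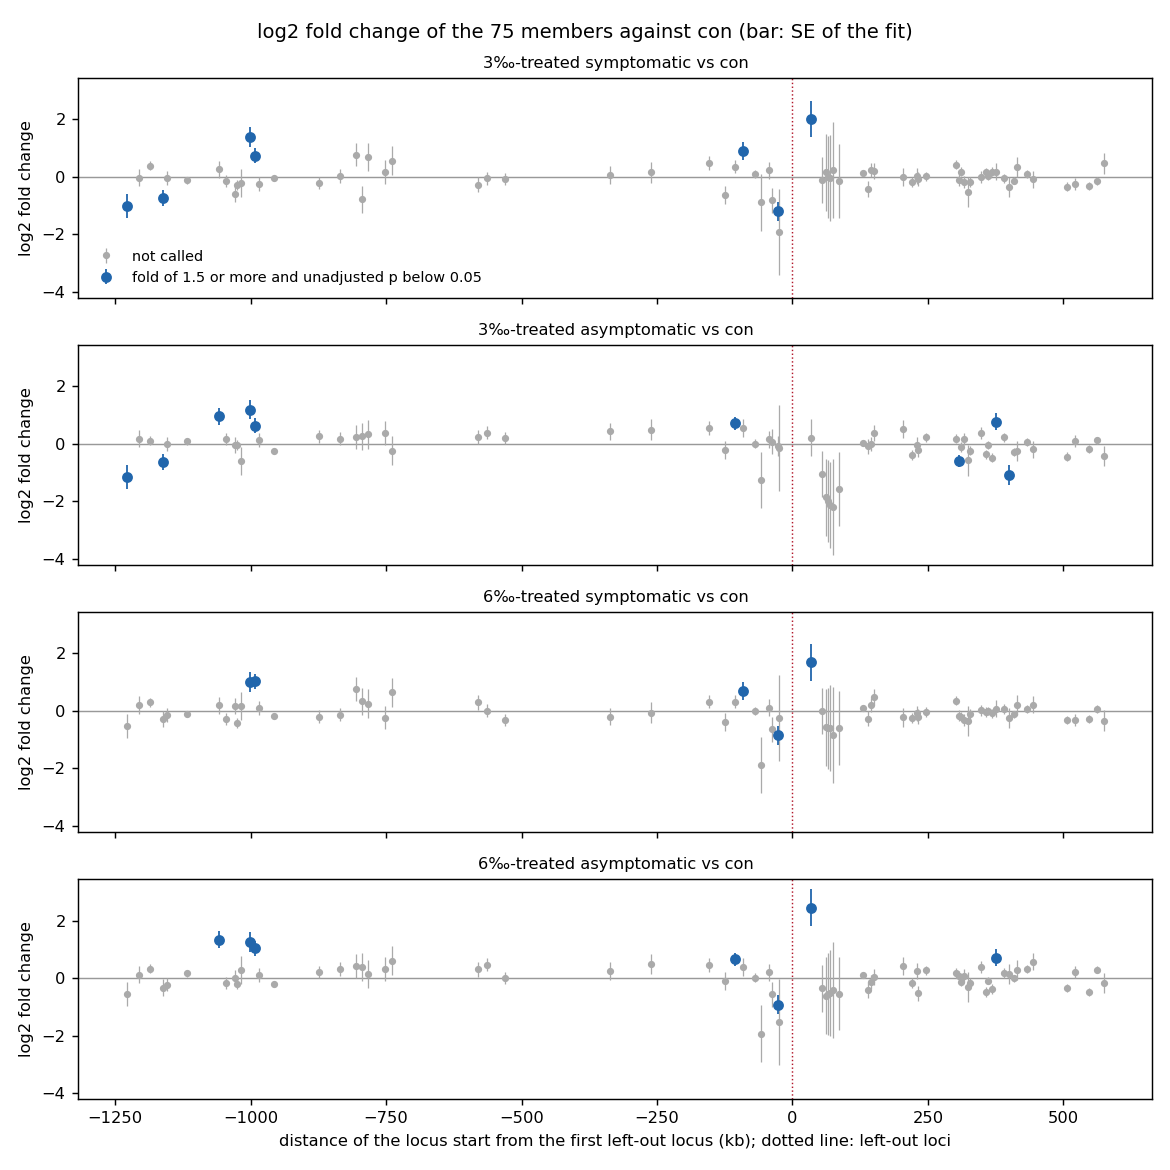
Fold change of the 75 members in the 4 treated groups vs con on the log2(FPKM + 1) scale, with the SE of the fit as bars, against distance from the first left-out locus in kb (dotted line). DEGs, in blue, are scattered along the stretch, and the long bars just after the dotted line are the run of 5 loci, which has no DEG.

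The member that passed the adjustment was locus 4684564, which lies over 1 Mb before the left-out loci. It had 11.9, 11.5 and 14.3 FPKM in 6‰ asymptomatic fish, against 5.04, 3.68 and 4.39 in con fish. The log2 fold change was 1.34 ± 0.29 (SE; limma, adjusted p = 0.0496), and no fish of the groups overlapped. In 3‰ asymptomatic fish it had 7.22, 12.9 and 8.83 FPKM, all above con (log2 fold change 0.96 ± 0.29, limma, adjusted p = 0.36). In symptomatic fish it was a down-regulated DEG against asymptomatic fish of the same salinity. It had 7.40, 4.59 and 3.87 FPKM in 6‰ symptomatic fish, and vs 6‰ asymptomatic fish the log2 fold change was -1.14 ± 0.29 (limma, adjusted p = 0.29). In 3‰ symptomatic fish it had 8.62, 5.67 and 3.21 FPKM, with a log2 fold change of -0.69 vs 3‰ asymptomatic fish. Its mean was thus highest in the asymptomatic groups, with 12.6 ± 1.47 FPKM at 6‰ and 9.66 ± 2.94 at 3‰ (SD, n = 3 each).

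There were 2 neighbouring members that were up-regulated DEGs in all 4 treated groups, 4741909 and 4751528 (2.67% of members, beside 0.41% of all loci). The 4 comparisons share the con fish, so they are not independent of each other. Locus 4741909 had 19.2, 36.6 and 23.6 FPKM in 3‰ symptomatic fish and 31.0, 16.1 and 22.0 in 3‰ asymptomatic fish. It had 22.4, 29.8 and 11.0 in 6‰ symptomatic and 18.7, 28.4 and 23.3 in 6‰ asymptomatic fish, against 8.15, 9.83 and 9.63 in con fish. All 12 treated fish were above all con fish. Its log2 fold change was 1.38 ± 0.34, 1.19 ± 0.34, 1.01 ± 0.34 and 1.25 ± 0.34 in these groups, with adjusted p from 0.0995 to 0.34 in limma. Without 6‰ symptomatic fish 2 the value in 6‰ symptomatic fish was 0.72 and no longer passed the threshold.

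Locus 4751528 had 204 to 459 FPKM in the 12 treated fish (median 232), against 114, 177 and 126 FPKM in con fish. Its log2 fold change vs con was 1.04 ± 0.26 in 6‰ symptomatic and 1.03 ± 0.26 in 6‰ asymptomatic fish (limma, adjusted p = 0.20 and adjusted p = 0.077). It was 0.74 in 3‰ symptomatic and 0.64 in 3‰ asymptomatic fish. The opposite pattern, 12 treated fish all below con, was found for loci 6248519 and 6289240. Locus 6289240 had 60.3 to 80.2 FPKM in treated fish (median 72.1), against 82.2 to 104 in con, and locus 6248519 had 11.3 to 16.7 FPKM (median 14.4), against 17.0 to 19.2. Neither reached a fold of 1.5 with p below 0.05. Groups without overlap in this sense were found for 2 members upward, beside 0.884% of all loci, and for 2 downward, beside 0.43%.

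Locus 5777222 was an up-regulated DEG in 3 treated groups. Its log2 fold change vs con was 2.01 ± 0.63 in 3‰ symptomatic, 2.45 ± 0.63 in 6‰ asymptomatic and 1.69 ± 0.63 in 6‰ symptomatic fish (limma, adjusted p = 0.25, adjusted p = 0.085 and adjusted p = 0.39). The fish of 3‰ symptomatic and 6‰ asymptomatic groups did not overlap con, whereas 6‰ symptomatic fish 3, at 0.587 FPKM, did. In 3‰ asymptomatic fish vs con the log2 fold change was 0.22, and the locus was no DEG.

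Locus 5715222 was the down-regulated DEG nearest to the cluster. Its log2 fold change vs con was -1.20 ± 0.34 in 3‰ symptomatic, -0.93 ± 0.34 in 6‰ asymptomatic and -0.85 ± 0.34 in 6‰ symptomatic fish (limma, adjusted p = 0.21, adjusted p = 0.20 and adjusted p = 0.44). The last of these did not pass the threshold without con fish 1 (-0.86), con fish 3 (-0.78), 6‰ symptomatic fish 2 (-0.73) or 6‰ symptomatic fish 3 (-0.85).

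The largest down-regulated changes in 3‰ asymptomatic fish vs con without overlap of the groups were at loci 4515268 and 6142385. Locus 6142385 had 196, 225 and 329 FPKM in 3‰ asymptomatic fish, against 563, 684 and 344 in con fish (log2 fold change -1.06 ± 0.35, limma, adjusted p = 0.37). In 6‰ asymptomatic fish it had 513, 623 and 566 FPKM, and the log2 fold change vs 3‰ asymptomatic fish was 1.21 ± 0.35 (limma, adjusted p = 0.34). Locus 4515268 had 3.45, 4.95 and 3.45 FPKM in 3‰ asymptomatic fish, against 22.6, 5.37 and 7.40 in con fish (log2 fold change -1.14 ± 0.42, limma, adjusted p = 0.39). That value rests on con fish 1, since without it the log2 fold change was -0.58 and did not pass.

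**Figure D5:**
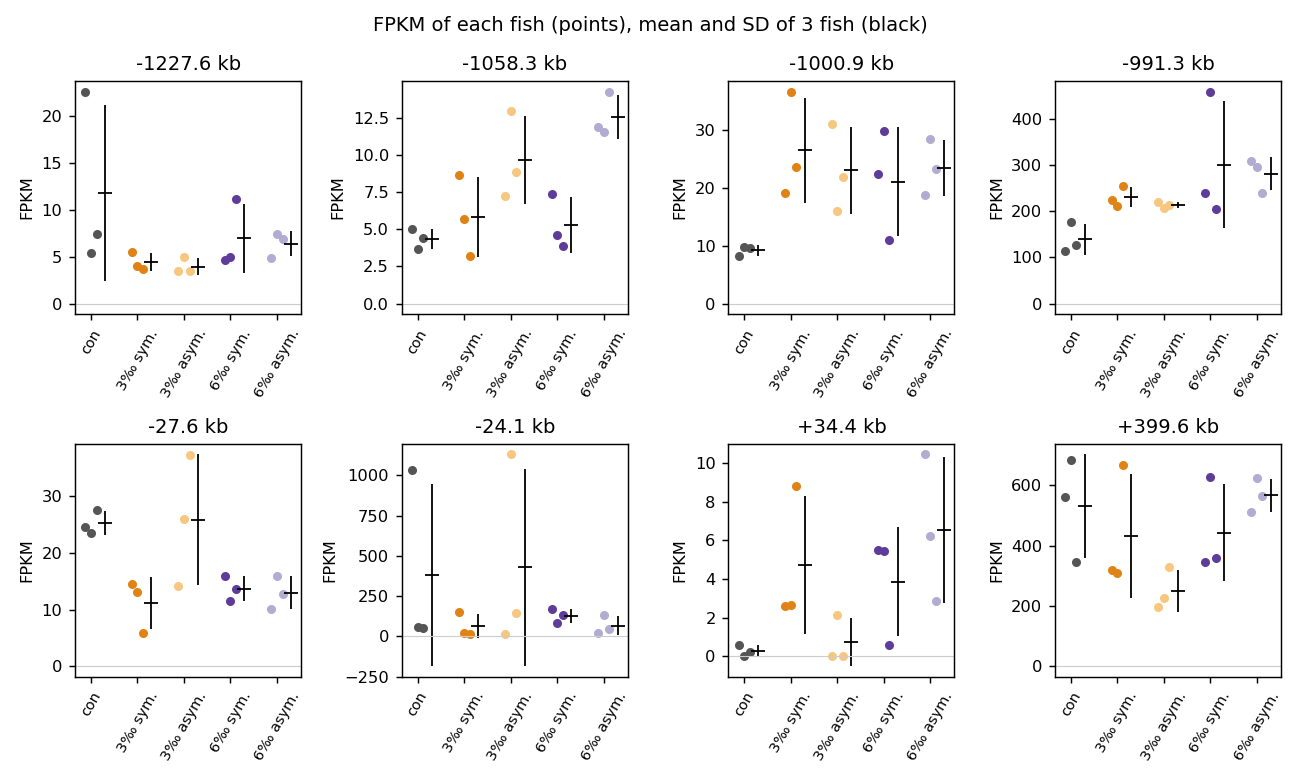
FPKM of each fish (points) with the mean and SD of 3 fish (black) in the 5 groups (sym. for symptomatic, asym. for asymptomatic) for 8 members, each titled by its distance from the first left-out locus. The loci at -1000.9 and -991.3 kb (4741909 and 4751528) are above con in all 12 treated fish, and the locus at -24.1 kb (5718732) is far higher in 2 fish than in the other 13.

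Comparisons between treated groups gave 1 to 6 members each. In 6‰ asymptomatic vs 3‰ asymptomatic fish 5 members were DEGs, 6.67% beside 5.22% of all loci. They were 4 up-regulated (2.93% of all loci) and 1 down-regulated (2.28%), and 3 in total without 3‰ asymptomatic fish 3 or without 6‰ asymptomatic fish 1. Among them the largest change was that of locus 5777222, with a log2 fold change of 2.22 ± 0.63 (limma, adjusted p = 0.34). In 6‰ symptomatic vs 3‰ symptomatic fish there were 3, 4% beside 2.43%. They were 2 up-regulated (1.39% of all loci) and 1 down-regulated (1.03%), and 1 in total without 3‰ symptomatic fish 2, 3‰ symptomatic fish 3 or 6‰ symptomatic fish 3. Of these, locus 4714806 had 1.84, 1.71 and 1.58 FPKM in 6‰ symptomatic fish, against 0.636, 0.352 and 0.761 in 3‰ symptomatic fish. Its log2 fold change of 0.78 ± 0.28 did not pass without 3‰ symptomatic fish 2 (0.67).

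Symptomatic and asymptomatic fish were compared within each salinity. In 3‰ symptomatic vs 3‰ asymptomatic fish 6 members were DEGs, 8% beside 5.04% of all loci. They were 3 up-regulated (2.27% of all loci) and 3 down-regulated (2.77%), and 1 in total without 3‰ symptomatic fish 3. With median-ratio scaling the split was 4 up-regulated and 2 down-regulated. Among these DEGs locus 5777222 again had the largest change (log2 fold change 1.79 ± 0.63, limma, adjusted p = 0.30). It did not pass without 3‰ asymptomatic fish 1 or 3 (1.51 each) or without 3‰ symptomatic fish 3 (1.31). In 6‰ symptomatic vs 6‰ asymptomatic fish 1 member, locus 4684564, was a DEG (1.33% beside 5.51%), down-regulated as were 3.23% of all loci, and 0 were up-regulated (2.28%). That count was 7 without 6‰ symptomatic fish 1, and 2 without 3‰ symptomatic fish 3, 6‰ symptomatic fish 3 or 6‰ asymptomatic fish 2. For the interaction of salinity and symptoms 0 members had an adjusted p below 0.05 in limma, and 4 had an unadjusted p below 0.05 (5.33%, beside 3.85% of all loci).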

How the data were processed

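Gill RNA of 15 fish was sequenced in libraries that, per the labels, were made with NEBNext reagents, with no strand-marking step described, while the paper names TruSeq. FPKM of 40116 loci per fish were deposited by the authors, with 32723 loci named by scaffold position and 7393 as newGene with a number. 1 annotation line per file was dropped. Genome build, aligner and filters: not given in the sources used here. Low FPKM values shared no step of 1 read between libraries (the commonest ratio held 0.535% to 0.728% of loci), so no count test was run.

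Loci with a mean of at least 0.5 FPKM were fitted with limma 3.58.1 in R 4.3.3 on log2(FPKM + 1), in 1 model over 5 groups (10 residual degrees of freedom, 2.64 from the prior). Fold changes on this scale understate the change of low loci. Neighbouring and consecutive loci are those with no other placed locus of at least 0.5 FPKM between them. Neighbouring loci were correlated in Python 3.11.15 with two-sided permutation tests over fish (100000 resamples, 10000 for alternatives), adjusted over all neighbouring pairs of all scaffolds rather than over members alone. Both steps were tested on simulated data. Loci were named by fixed rules: the highest and lowest mean FPKM, the largest fold changes without overlap, 0 in some fish beside 2 FPKM or more in another, a distance of at most 50 kb from the left-out loci, correlated neighbours, likeness to the left-out loci, and a mean near 0.5 FPKM. Loci 5672786, 5872448, 6248519 and 6289240, the members that follow locus 5481484 and newGene_12188 were picked once their values were known. The members, lists and rules were chosen with earlier results of these data known.

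As alternatives, the adjusted p, a fit of the 2 compared groups alone, no filter, a mean of at least 1 FPKM, median-ratio scaling over 22454 loci, quantile normalization, pseudocounts of 0.1 and 0.01, the replicate number as a block, subtraction of group means, and leaving out each fish were tried. Leaving out 3‰ asymptomatic fish 3 and 6‰ symptomatic fish 2 together was added after seeing the data. FPKM gives no depth, so the precision stated here rests only on the spread between fish. How much of that spread comes from few reads at low FPKM is unknown. Infected fish were not analysed here.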

Additional observations from a re-analysis of the deposited data

How the results depend on the processing

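The members named for their fold change were DEGs without overlap of the groups compared, so leaving out a fish could not reverse their sign. No filter, a mean of at least 1 FPKM and a pseudocount of 0.01 were not run for these values. Under the other alternatives their log2 fold changes kept their sign. The balance of up- and down-regulated members did not, with 5 and 9 in 3‰ asymptomatic fish vs con without 3‰ asymptomatic fish 2, 4 and 5 in 3‰ symptomatic fish vs con without con fish 2, and 2 and 3 in 6‰ symptomatic fish vs con without con fish 2. The r of loci 5796587 and 5804236 also changed sign, at -0.29 without 2 fish, beside 0.71 with all fish. With an adjusted p the counts of member DEGs were 0 in 7 comparisons and 1 in 6‰ asymptomatic fish vs con (limma; the counts at the unadjusted p were 9, 7 and 5 in 3‰ asymptomatic, 3‰ symptomatic and 6‰ symptomatic fish vs con, 5 and 3 in asymptomatic and symptomatic fish of 6‰ vs 3‰, and 6 and 1 in symptomatic vs asymptomatic fish of 3‰ and 6‰). With only the 2 groups compared, 6‰ symptomatic vs 3‰ symptomatic fish gave 1 member, and with quantile normalization 6‰ symptomatic vs 6‰ asymptomatic fish gave 2. Locus 4515268 in 3‰ asymptomatic fish vs con did not pass with only the 2 groups compared, at the same log2 fold change of -1.14. Leaving out each fish gave 5 to 14 members in 3‰ asymptomatic fish vs con, 4 to 10 in 3‰ symptomatic, 6 to 11 in 6‰ asymptomatic and 2 to 7 in 6‰ symptomatic fish vs con. It gave 3 to 5 in 6‰ asymptomatic vs 3‰ asymptomatic, 1 to 4 in 6‰ symptomatic vs 3‰ symptomatic, 1 to 9 in 3‰ symptomatic vs 3‰ asymptomatic and 1 to 7 in 6‰ symptomatic vs 6‰ asymptomatic fish. For pairs of neighbouring members it gave 4 to 7 that passed, beside 7 with all fish. After subtraction of each group's mean 13 pairs passed, 5 of which were among the 7. These values were permuted over 15 fish although subtraction leaves 10 degrees of freedom, which makes the permutation p too small. The 13 pairs are therefore not comparable with the 7. No source used here says that a replicate number marks a shared tank or day, and the r of same-numbered fish was over 0.1 in 10 of 30 pairs (-0.47 to 0.54, median -0.01), so the fish were not taken as paired. For 8 of the 15 fish, the mean r to fish of the other groups was highest for their own number among the 3 replicate numbers. With the replicate number as a block the counts were 9, 8, 7 and 4 in the comparisons of 3‰ asymptomatic, 3‰ symptomatic, 6‰ asymptomatic and 6‰ symptomatic fish with con. The shares of all loci under these alternatives are not given here. Whether the shifts are particular to the members can thus not be read from the counts. The cause of these shifts was not tested. The number of reads assigned to loci in each library is unknown. At an FPKM of 0, absence of RNA from a locus can thus not be told apart from reads that were not assigned to it.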
